A study of Homo sapiens with 4 samples.

Results

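The genes for the protein part of the mitochondrial ribosome were taken as all genes whose symbol begins with MRPL or MRPS followed by a digit, the letters standing for large and small subunit. The rule uses names only, no measured value. It found 70 of the 7698 protein-coding genes listed, 43 of them large subunit (MRPL) and 27 small subunit (MRPS), on 21 chromosomes. GENCODE v29 annotates 78 such coding genes, and the 8 others (MRPL17, MRPL22, MRPL44, MRPL50, MRPL55, MRPL57, MRPS11 and MRPS23) were not analysed here.

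Gene expression was measured by mRNA sequencing in MDA-MB-231, an established line of human triple-negative breast cancer cells, in 2 siPCBP2 libraries and 2 untreated libraries. siPCBP2 is a small interfering RNA against PCBP2, an RNA-binding protein of poly(C) stretches. The treatment field of the siPCBP2 samples names a transfection with PCBP2 itself, which conflicts with their titles and sources, and the grouping follows the titles. The labels name no control siRNA for the untreated cells, so transfection and silencing cannot be told apart, and nothing says that the libraries are separate cultures, so each p-value reflects no more than how these libraries vary, possibly for technical reasons.

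PCBP2 itself stood at 16.6 and 16.7 FPKM (fragments scaled to transcript length and library total) in the siPCBP2 libraries, against 101.4 and 92.9 FPKM in the untreated libraries. It was 5.83-fold higher in untreated cells, and the difference passed the test (log2 difference -2.47, SE 0.11, limma adjusted p = 0.0119). Among the cell line's markers, VIM, the filament protein of mesenchymal cells, had 475 and 502 FPKM in siPCBP2 cells and 536 and 491 FPKM in untreated cells, and CD44 and AXL were also listed. The luminal markers ESR1, PGR and CDH1 and the markers of immune, endothelial and fibroblast cells PTPRC, PECAM1 and COL1A2 were not among the listed genes. The values summed to 378204 and 352964 in siPCBP2 libraries and to 371693 and 376347 in untreated libraries. The mRNAs encoded in the mitochondrial genome held 32.3% and 31.0% of those sums in siPCBP2 libraries, against 29.7% and 31.2% in untreated libraries. In bulk RNA, a change in each cell and a change in the share of cells that express a gene cannot be told apart. The depth is unknown, since the values are not counts.

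The mitochondrial ribosome translates the mRNAs of the mitochondrial genome, which code for core subunits of the respiratory chain and the ATP synthase. All of its proteins are encoded in the nucleus, made in the cytosol and imported, and they assemble on ribosomal RNA made inside the organelle. The small subunit binds and decodes the mRNA, and the large subunit joins the amino acids and holds the tunnel through which the new chain leaves. Some of the proteins have a counterpart in the bacterial ribosome and others are specific to mitochondria. The symbols are not a perfect guide to the structure: MRPS18A and MRPS30 sit in the large subunit, and MRPS36 belongs to the 2-oxoglutarate dehydrogenase complex.

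All 70 genes were expressed in these cells, and none was at 0 in any library. Their mean over the 4 libraries ran between 7.63 and 78.4 FPKM with a median of 24.3, while the median over all genes tested was 17.0 FPKM. The median was 24.6 FPKM for the large and 23.4 FPKM for the small subunit genes. MRPL33, a small protein of the large subunit, was the most abundant, at 72.0 and 79.6 FPKM in siPCBP2 cells and 83.6 and 78.5 FPKM in untreated cells. MRPS10, in the head of the small subunit, came close behind it, at 77.1 and 75.5 FPKM in siPCBP2 cells and 67.1 and 72.0 FPKM in untreated cells. MRPL33 overlapped between groups, and MRPS10 had both siPCBP2 values above both untreated values, with a limma adjusted p of 0.554. The next small subunit genes by level were MRPS6, on the platform, at 35.1 and 50.5 FPKM in siPCBP2 cells and 52.2 and 48.3 FPKM in untreated cells, and MRPS15. MRPS15 had 47.6 and 43.8 FPKM in siPCBP2 cells and 44.1 and 47.2 FPKM in untreated cells. Both overlapped between groups. In GENCODE v29, MRPL33 shares an exon with BABAM2 and MRPS6 with SLC5A3, each on its own strand. It names 2 pseudogenes each after MRPS10 and MRPS6 and 1 after MRPS15. Whether this bears on their levels was not tested. At the low end stood MRPL53, a protein specific to mitochondria, with 6.51 and 8.30 FPKM in siPCBP2 cells and 8.03 and 7.68 FPKM in untreated cells. MRPL42, the next lowest, had 8.68 and 8.69 FPKM in siPCBP2 cells, against 7.97 and 5.23 FPKM in untreated cells. Its siPCBP2 values lay above its untreated values (log2 difference 0.37, limma adjusted p = 0.456). MRPS36 had 7.54 and 9.17 FPKM in siPCBP2 cells and 8.21 and 7.54 FPKM in untreated cells. MRPL53 and MRPS36 overlapped between groups.

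**Figure D1:**
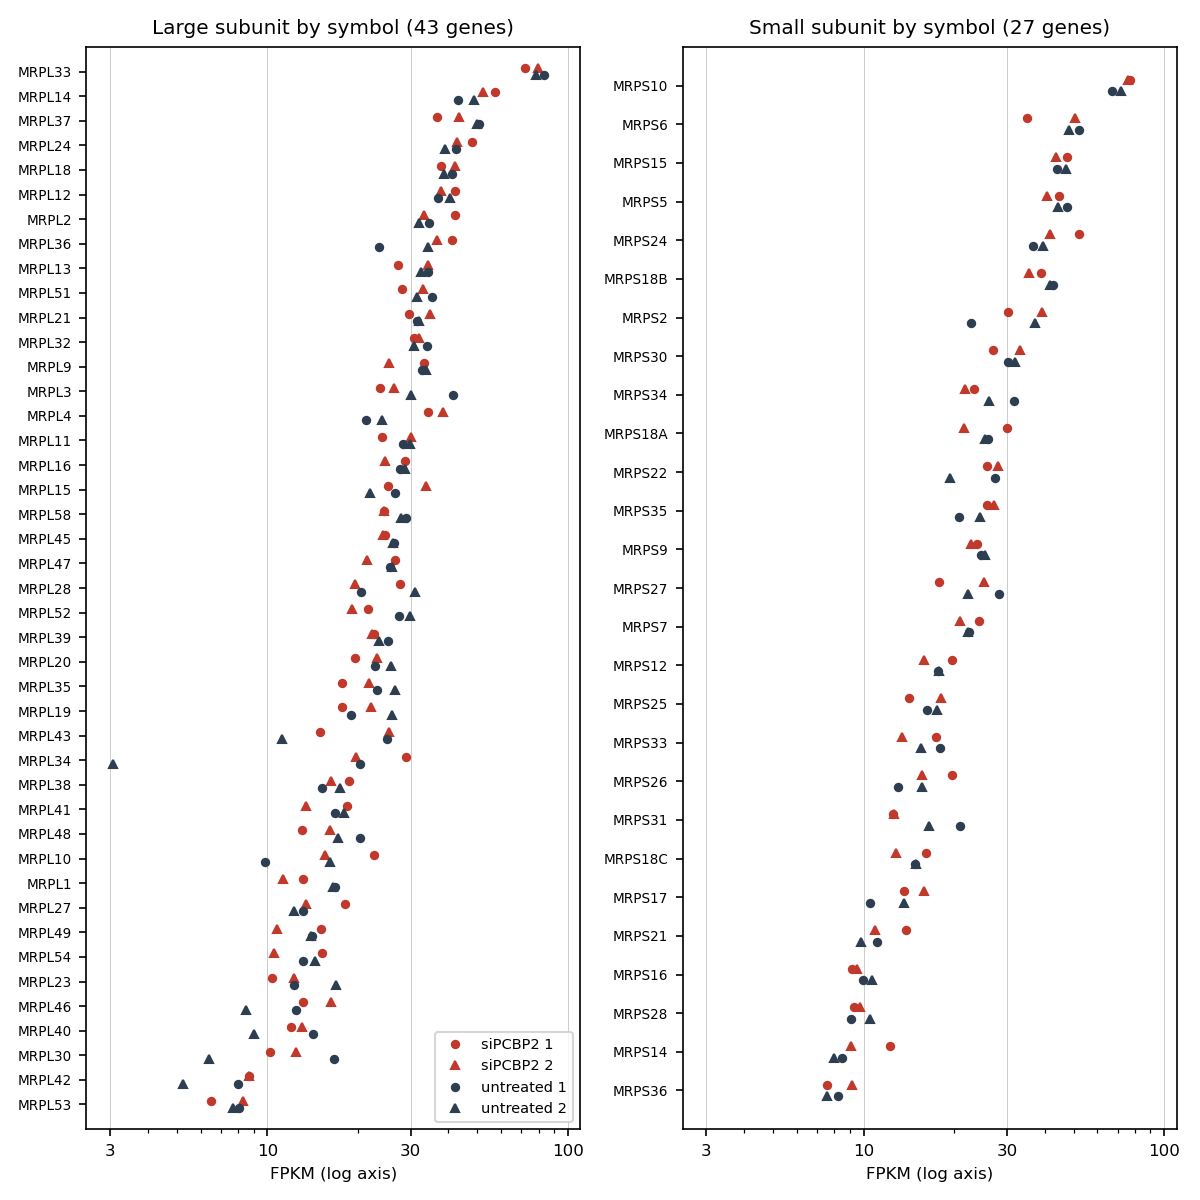
FPKM of the 43 large subunit genes and the 27 small subunit genes on a log axis, 1 row per gene, ordered by mean level; red marks are the 2 siPCBP2 libraries, dark marks the 2 untreated libraries, circles replicate 1 and triangles replicate 2. Means run between 7.63 and 78.4 FPKM, and the lowest point is MRPL34 in untreated 2 at 3.08 FPKM.

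The siPCBP2 and untreated cells were compared gene by gene with limma on log2(FPKM + 1), where a difference of low genes is understated. None of the 70 genes passed an adjusted p of 0.05 over the 7689 genes tested, and the lowest adjusted p among them was 0.173. Over all genes, 0.052% passed. At an unadjusted p under 0.05, 1 of the 70 (1.43%) was higher in siPCBP2 cells, where the share over all genes was 5.67%, and 5 (7.14%) were lower, where it was 9.73%. Both siPCBP2 values lay above both untreated values for 12 genes (17.1%, against 19.7% of all genes) and below them for 15 genes (21.4%, against 29.4% of all genes). The other 43 overlapped. All of these shares lie near or under those of all genes. The median log2 difference was -0.045 over the 70 genes and -0.037 over all genes tested, and 40 of the 70 (57.1%, against 55.6% of all genes) had a negative difference. A difference beyond 0.5 on the log2 scale was seen in 4 of the 70 (5.71%), against 11.1% of all genes.

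**Figure D2:**
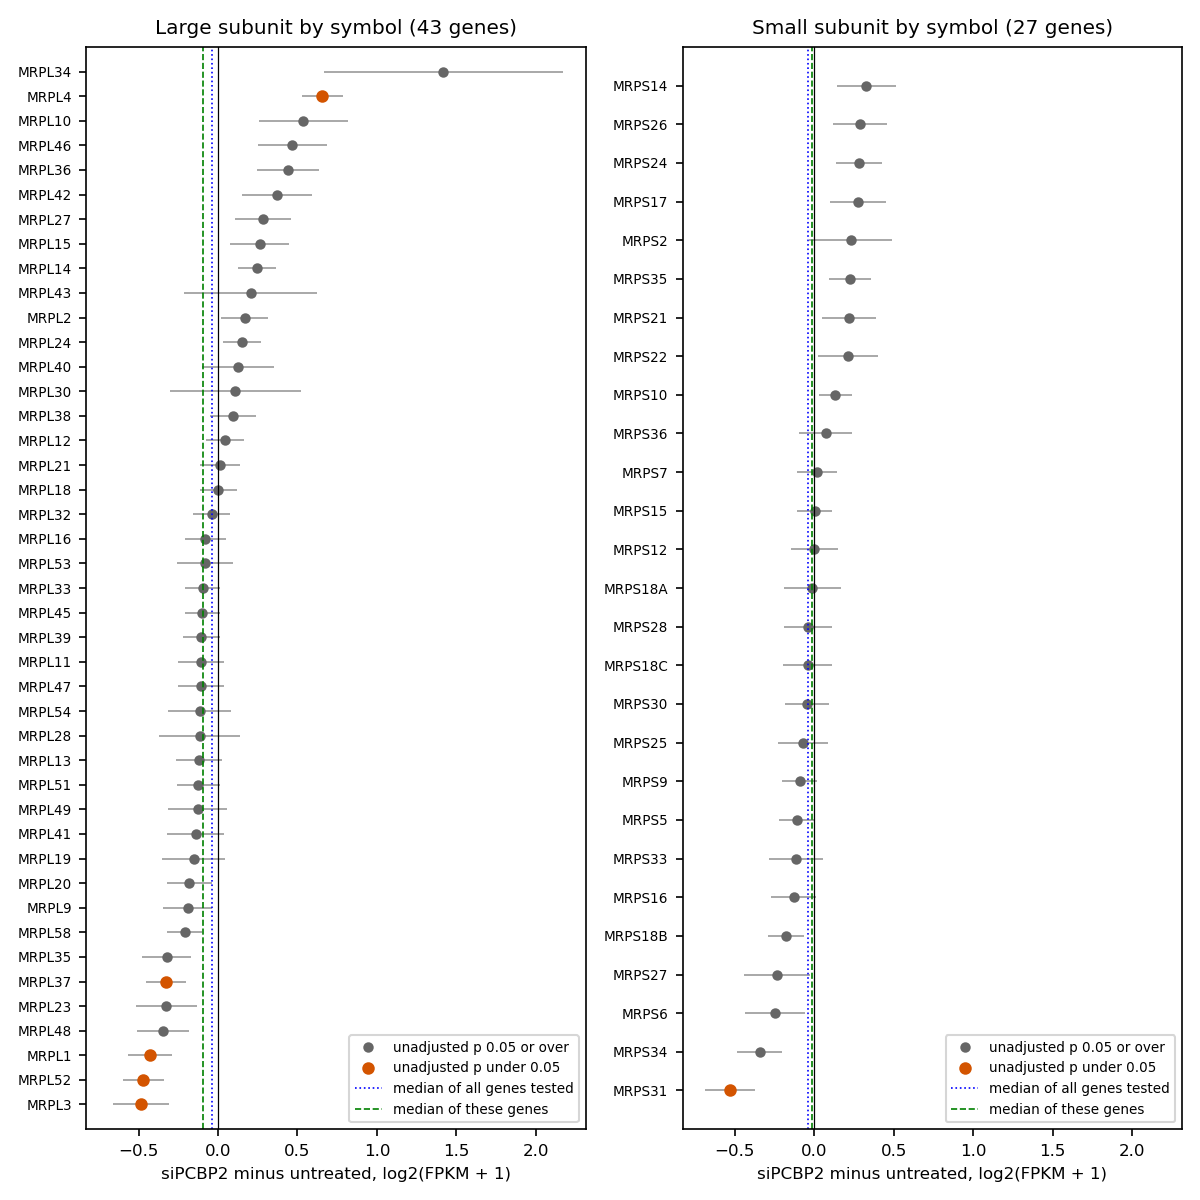
Difference siPCBP2 minus untreated in log2(FPKM + 1) for each gene, with its limma standard error as a bar, large subunit genes left and small subunit genes right. Orange points are the 6 genes with an unadjusted p under 0.05, the dashed green line is the median of the genes shown (-0.10 large, -0.01 small) and the dotted blue line the median of all genes tested (-0.04).

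Among the 6 genes at an unadjusted p under 0.05, MRPL4 was the one on the higher side. Its protein is the counterpart of a bacterial protein that lines the exit tunnel, and the gene (ENSG00000105364) lies on chr19:10251901-10260045, plus strand, in hg38. MRPL4 had 34.3 and 38.3 FPKM in siPCBP2 cells, against 21.3 and 24.0 FPKM in untreated cells. The means were 36.3 ± 2.82 FPKM in siPCBP2 cells and 22.7 ± 1.91 FPKM in untreated cells (SD, n = 2 each), a ratio of 1.60. The groups stood well apart, but the adjusted test was not passed (log2 difference 0.66, SE 0.13, limma adjusted p = 0.173).

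On the lower side was MRPL52, a large subunit protein specific to mitochondria (ENSG00000172590, chr14:22829879-22835037, plus strand). It had 21.6 and 19.1 FPKM in siPCBP2 cells, against 27.4 and 29.8 FPKM in untreated cells. With a log2 difference of -0.47 (SE 0.13, limma adjusted p = 0.227), the groups did not overlap. MRPL3 (ENSG00000114686, chr3:131462212-131502983, minus strand) is the counterpart of a bacterial protein that reaches toward the site of peptide bond formation. It had 23.7 and 26.3 FPKM in siPCBP2 cells, against 41.5 and 30.1 FPKM in untreated cells. The groups lay apart, with the untreated pair far from each other (log2 difference -0.49, SE 0.18, limma adjusted p = 0.303).

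MRPL1 forms part of the stalk where used tRNAs leave the ribosome (ENSG00000169288, chr4:77862520-77952790, plus strand). It had 13.1 and 11.2 FPKM in siPCBP2 cells, against 16.9 and 16.5 FPKM in untreated cells (log2 difference -0.43, SE 0.14, limma adjusted p = 0.261). MRPL37, another large subunit protein specific to mitochondria, lies on chr1:54184041-54225464, plus strand (ENSG00000116221). It had 36.6 and 43.4 FPKM in siPCBP2 cells, against 50.6 and 49.8 FPKM in untreated cells (log2 difference -0.33, SE 0.13, limma adjusted p = 0.317). Neither gene overlapped between groups. GENCODE v29 places exons of SSBP3, CYB5RL and AL357673.1 on the other strand across exons of MRPL37. SSBP3 had 8.37 and 7.25 FPKM in siPCBP2 cells, against 9.54 and 11.0 FPKM in untreated cells. The sources used here do not say whether the counting kept strands apart, so reads of these overlaps cannot be told apart.

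MRPS31 was the only one of the 6 from the small subunit, a mitochondria-specific protein of its head (ENSG00000102738, chr13:40729135-40771173, minus strand). It had 12.5 and 12.6 FPKM in siPCBP2 cells, against 20.9 and 16.5 FPKM in untreated cells. The siPCBP2 pair was almost identical and lay below both untreated values, which differed more (log2 difference -0.53, SE 0.16, limma adjusted p = 0.235). GENCODE v29 names 4 pseudogenes after MRPS31 and 1 each after MRPL3 and MRPL37, and reads could be split between a gene and its copies. Of the 70 genes, 30 have a pseudogene of their name, 13 share an exon with another coding gene on their strand and 21 with one on the other strand, which leaves 20 with none of these.

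The regions before the start sites were read from RefSeq (GRCh38.p14), whose promoter table holds 61 of the 70 genes with 77 start sites, each with 250 bases before and 50 bases after the start. The motif CCGGAAG, a core bound by ETS factors such as GABPA, was present on either strand in 32 of the 77 promoters (41.6%), against 18.4% of the promoters of all listed genes and 10.3% of all promoters in the table. It was present in 41.3% of the large and 41.9% of the small subunit promoters. Counted by gene, 29 of the 61 (47.5%) held it, against 25.1% of the listed genes and 12.2% of all genes in that table. GATGGCG, a core bound by YY1, was present in 14 of the 77 (18.2%), against 7.44% of the promoters of listed genes and 4.20% of all. CATGCGC, a core bound by NRF1, was present in 5 of the 77 (6.49%), against 7.21% of the promoters of listed genes and 4.43% of all. Of the 44 CCGGAAG matches, 25 began within the 60 bases before the start, with a median position of -27.5 when the start site is 0. Matches were counted per start site, and 11 of the genes have more than 1 start, so 1 site can count more than once. Positions in other promoters were not counted. No match of the 3 motifs was listed for MRPL4, MRPL1 and MRPL37, and their stretches are not printed. Each either has no entry in the promoter table or has over 30 of the last 80 bases inside the gene as listed. The lack of a match may therefore mean that no window was read. The last 80 bases before the start are shown for MRPL52, MRPS31 and MRPL3, which are among the 6 genes above, and for MRPS10 and MRPL33, the most abundant of each subunit, 5′ to 3′ along the gene, with GATGGCG in MRPL52 and CCGGAAG in the other 4 in capitals. They span chr14:22829807-22829886 (plus), chr13:40771191-40771270 (minus), chr3:131502972-131503051 (minus), chr6:42217862-42217941 (minus) and chr2:27771639-27771718 (plus) in the order printed.
MRPL52: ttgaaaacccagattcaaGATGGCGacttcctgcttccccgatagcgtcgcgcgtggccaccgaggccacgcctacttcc
MRPS31: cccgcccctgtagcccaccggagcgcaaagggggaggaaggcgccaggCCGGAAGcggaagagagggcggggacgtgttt
MRPL3: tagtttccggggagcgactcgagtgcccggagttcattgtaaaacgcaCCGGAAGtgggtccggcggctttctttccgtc
MRPS10: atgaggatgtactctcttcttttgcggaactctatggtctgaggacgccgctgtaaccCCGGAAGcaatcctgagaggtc
MRPL33: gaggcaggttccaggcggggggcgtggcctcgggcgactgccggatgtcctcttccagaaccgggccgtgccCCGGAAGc
The CCGGAAG match began at -32 in both MRPS31 and MRPL3, at -22 in MRPS10 and at -8 in MRPL33. MRPL52 also held CCGGAAG, on the other strand, spanning -5 to 1. That match runs past the printed bases and is therefore not in capitals. A match describes the letters of the window and is no evidence of binding.

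**Figure D3:**
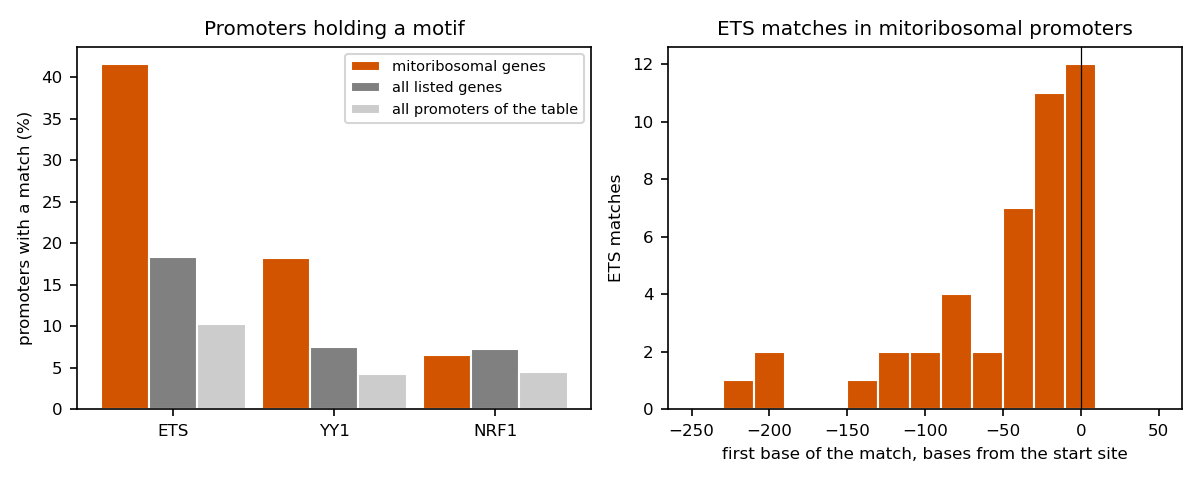
Left, percent of promoters that hold CCGGAAG (ETS), GATGGCG (YY1) or CATGCGC (NRF1) on either strand, for mitochondrial ribosomal genes, all listed genes and all promoters of the RefSeq table. Right, the number of CCGGAAG matches by the position of their first base relative to the start site at 0, counted per start site. Of the 44, 25 begin within the 60 bases before that site.

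Large and small subunit genes were then compared as wholes. The large subunit genes summed to 1103 and 1101 FPKM in siPCBP2 libraries, against 1124 and 1093 FPKM in untreated libraries. The small subunit genes summed to 689 and 680.1 FPKM in siPCBP2 libraries, against 682 and 686 FPKM in untreated libraries. Both sums overlapped between groups. The large over small ratio of the sums was 1.60 and 1.62 in siPCBP2 libraries, against 1.65 and 1.59 in untreated libraries, with means of 1.61 ± 0.0123 in siPCBP2 libraries and 1.62 ± 0.0389 in untreated libraries (SD, n = 2 each). The siPCBP2 ratios lay between the untreated ones. With 2 libraries against 2, the exact permutation test cannot give a two-sided p under 0.333, so no test was made on these sums. All 70 genes together made up 0.474% and 0.505% of the summed FPKM in siPCBP2 libraries, against 0.486% and 0.472% in untreated libraries.

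**Figure D4:**
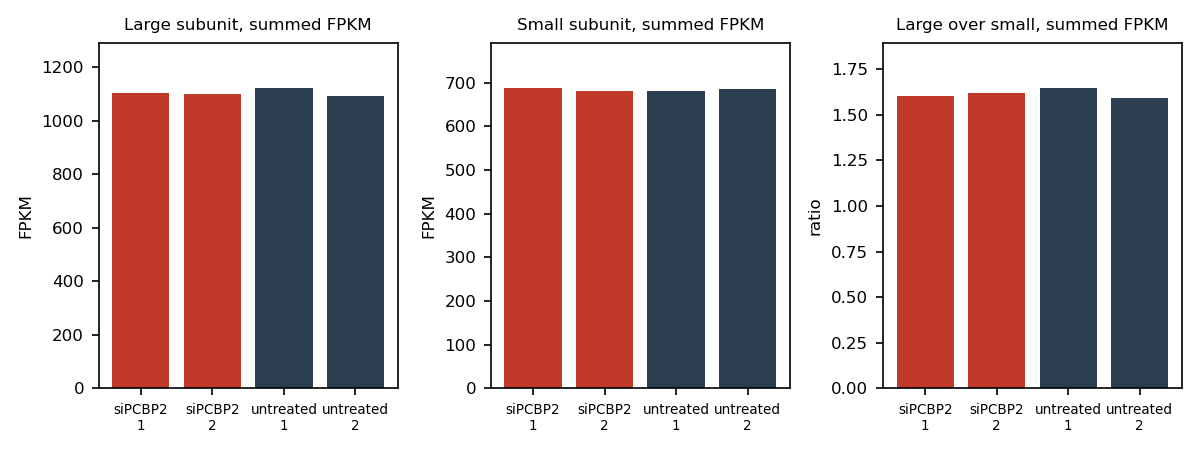
Summed FPKM of the large subunit genes, of the small subunit genes and the ratio of the sums, 1 bar per library, siPCBP2 in red and untreated in dark blue, all axes from 0. In each panel the bars of the groups overlap in height, and the ratio stays between 1.59 and 1.65.

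Gene by gene, the median log2 difference was -0.10 for the large and -0.01 for the small subunit genes. Of the large subunit genes, 25 had a negative and 18 a positive difference, and of the small subunit genes 15 had a negative and 12 a positive one. Both siPCBP2 values lay above both untreated values for 7 large subunit genes (16.3%) and 5 small subunit genes (18.5%), against 19.7% of all genes. They lay below for 10 large subunit genes (23.3%) and 5 small subunit genes (18.5%), against 29.4% of all genes. All of these shares are under those of all genes. The large minus small difference of medians, -0.085 over all 70, depended on the genes and on single libraries. Over the 20 genes with no shared exon and no pseudogene it was 0.030. It was -0.0084 without untreated replicate 1 and -0.015 without siPCBP2 replicate 1. With MRPS18A and MRPS30 moved to the large subunit and MRPS36 left out, the medians were -0.08 for 45 large and -0.02 for 24 small subunit genes. Both gaps are small beside the spread of the genes, whose quartiles over the 70 were -0.13 and 0.19.

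By origin, the 42 genes with a bacterial counterpart and the 27 specific to mitochondria were summed separately, with MRPS36 in neither group. Of the MRPS18 family, MRPS18C was counted as having a counterpart and MRPS18A and MRPS18B as specific to mitochondria. Sums under another assignment were not made. The mitochondria-specific genes summed to 546 and 557 FPKM in siPCBP2 libraries, against 616 and 568 FPKM in untreated libraries. The genes with a bacterial counterpart summed to 1238 and 1215 FPKM in siPCBP2 libraries, against 1182 and 1203 FPKM in untreated libraries. Neither pair of sums overlapped, with the siPCBP2 sums lower for the mitochondria-specific genes and higher for the others, though 2 against 2 libraries cannot test this. Without MRPL34 the sums of the bacterial group overlapped, at 1209 and 1195 FPKM in siPCBP2 libraries and 1161 and 1199.8 FPKM in untreated libraries. The mitochondria-specific sums came closest at 557 FPKM in siPCBP2 replicate 2 and 568 FPKM in untreated replicate 2. That gap is narrow beside single members such as MRPL52, at 19.1 and 29.8 FPKM in those 2 libraries, so 1 gene can carry it. Leaving out MRPL43, whose values spread widely within groups, made the gap wider. The sums were then 531 and 532 FPKM in siPCBP2 libraries, against 591 and 556 FPKM in untreated libraries. The summed FPKM of all listed genes was 378204 and 352964 in siPCBP2 libraries and 371693 and 376347 in untreated libraries. Taken as shares of these totals, the mitochondria-specific sums overlap between groups. The sums of the whole bacterial group still lie apart as shares. The median log2 difference was -0.11 for the mitochondria-specific genes, of which 19 of 27 were negative, and 0.00 for the others, of which 21 of 42 were negative. Both siPCBP2 values lay below both untreated values for 9 of the 27 mitochondria-specific genes (33.3%) and 6 of the 42 others (14.3%), against 29.4% of all genes. They lay above for 4 of the 27 (14.8%) and 8 of the 42 (19.0%), against 19.7% of all genes. The mitochondria-specific genes were also the less abundant, with a median level of 19.2 FPKM against 27.1 FPKM.

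The MRPS18 family has 3 members in humans, of which MRPS18A sits in the large subunit and MRPS18B and MRPS18C in the small one. MRPS18B had 38.9 and 35.5 FPKM in siPCBP2 cells, against 42.7 and 41.7 FPKM in untreated cells. The groups did not overlap (log2 difference -0.18, limma adjusted p = 0.48). MRPS18A had 30.1 and 21.5 FPKM in siPCBP2 cells, against 25.9 and 25.4 FPKM in untreated cells, and MRPS18C had 16.2 and 12.8 FPKM in siPCBP2 cells, against 14.8 and 15.0 FPKM in untreated cells. In both, the untreated values lay between the siPCBP2 values. MRPS30 likewise overlapped, at 27.0 and 33.2 FPKM in siPCBP2 cells and 30.1 and 31.8 FPKM in untreated cells.

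Further genes lay near the unadjusted threshold without passing it. MRPS34, a small subunit protein specific to mitochondria, had 23.3 and 21.7 FPKM in siPCBP2 cells, against 31.7 and 26.2 FPKM in untreated cells (log2 difference -0.34, limma adjusted p = 0.332). MRPL36, a small zinc-binding protein of the large subunit, had 41.1 and 36.8 FPKM in siPCBP2 cells, against 23.6 and 34.1 FPKM in untreated cells (log2 difference 0.44, limma adjusted p = 0.356). Both genes lay apart between groups, in opposite directions. The next by p, named after their values were seen, went both ways too. MRPL46, specific to mitochondria, had 13.2 and 16.3 FPKM in siPCBP2 cells, against 12.5 and 8.49 FPKM in untreated cells (log2 difference 0.47). MRPL48, also specific to mitochondria, had 13.0 and 16.1 FPKM in siPCBP2 cells, against 20.4 and 17.1 FPKM in untreated cells (log2 difference -0.35). MRPL35, which has a bacterial counterpart, had 17.7 and 21.8 FPKM in siPCBP2 cells, against 23.1 and 26.6 FPKM in untreated cells (log2 difference -0.32). None of these 3 overlapped between groups.

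Other genes of the large subunit stood out by level or role. MRPL14, at the interface of the subunits and among the most abundant, had 57.0 and 52.0 FPKM in siPCBP2 cells, against 43.1 and 48.6 FPKM in untreated cells (log2 difference 0.25, limma adjusted p = 0.391). Its siPCBP2 values lay above its untreated values. MRPL12, the stalk protein that also binds the mitochondrial RNA polymerase, had 42.2 and 37.9 FPKM in siPCBP2 cells and 37.0 and 40.6 FPKM in untreated cells and overlapped. In the small subunit, MRPS24, at the entry of the mRNA channel, had 51.9 and 41.7 FPKM in siPCBP2 cells, against 36.6 and 39.6 FPKM in untreated cells (log2 difference 0.28, limma adjusted p = 0.404). The differences of MRPS14, MRPS35 and MRPS26 were 0.33, 0.22 and 0.29 on the log2 scale, at limma adjusted p of 0.438, 0.457 and 0.459. These 4 small subunit genes had both siPCBP2 values above both untreated ones.

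The spread between the libraries of a group set the limit of these comparisons. The median size of the difference between groups was 0.15 on the log2 scale over the 70 genes (0.19 over all genes), while the siPCBP2 libraries differed from each other by a median of 0.23 (0.18 over all genes) and the untreated libraries by 0.12 (0.15 over all genes). The difference between groups is taken between means of 2 libraries, and the others between single libraries. Averaging makes the first smaller, so these sizes are not like measures and only the values of all genes are a fair comparison. The difference between groups was larger than both differences within groups in 17 of the 70 genes (24.3%), 11 large and 6 small subunit genes, against 36.6% of all genes. In 3 genes, all of the large subunit, the libraries of a group differed by over 1 on the log2 scale, and MRPL34 and MRPL43 are named here after their values were seen. MRPL34, a small protein with a bacterial counterpart, had 28.9 and 19.8 FPKM in siPCBP2 cells, against 20.3 and 3.08 FPKM in untreated cells. Its difference of 1.42 on the log2 scale, the highest of the 70, had an SE of 0.75 (limma adjusted p = 0.416), and in the other 3 libraries the gene stood between 19.8 and 28.9 FPKM. MRPL30 had 10.2 and 12.5 FPKM in siPCBP2 cells, against 16.6 and 6.39 FPKM in untreated cells, and MRPL43 had 15.0 and 25.4 FPKM in siPCBP2 cells, against 25.0 and 11.2 FPKM in untreated cells. The groups overlapped in all 3. Each of the 3 shares exons with another annotated gene, MRPL34 with ABHD8 and MRPL43 with SEMA4G and TWNK on the other strand and MRPL30 with AC079447.1 and AC092587.1 on its own strand, and whether this bears on the spread was not tested.

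**Figure D5:**
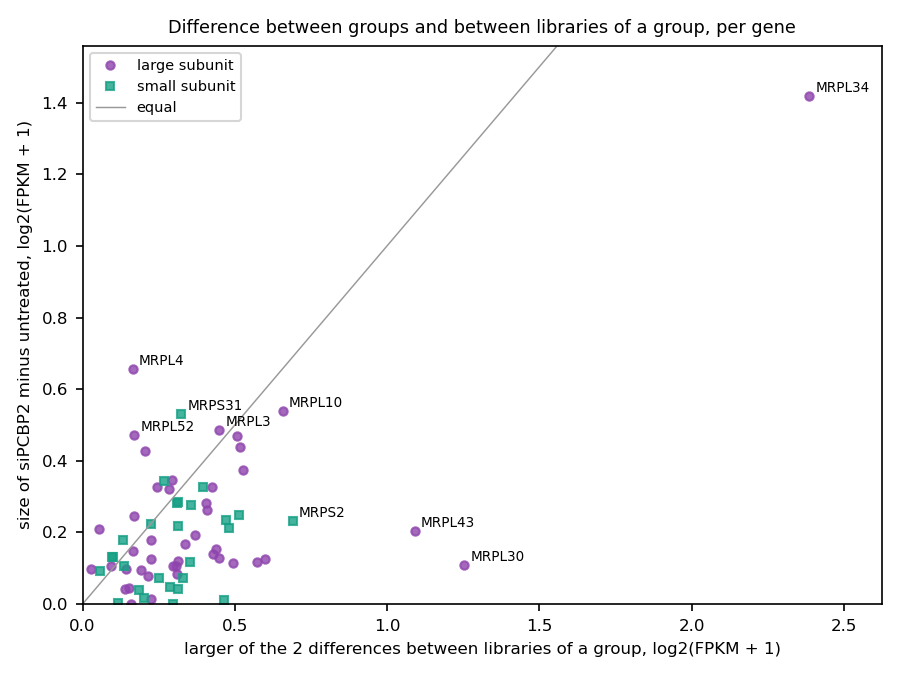
For each of the 70 genes, the size of the difference between groups (vertical) against the larger of the 2 differences between libraries of a group (horizontal), both in log2(FPKM + 1); circles are large and squares small subunit genes. The 17 genes above the line of equal size include MRPL4, MRPL52 and MRPS31, and MRPL34, MRPL30 and MRPL43 lie far to the right. The vertical values compare means of 2 libraries and the horizontal values single libraries, so the line is no measure of noise.

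The authors' deposited table gives a p-value under 0.05 to 6 of the 70 genes (8.57%), against 8.48% of all 7698 genes, and its lowest q-value among the 70 was 0.521. In the authors' deposited table these were MRPL58, a rescue factor built into the large subunit (p-value 0.0097), MRPS30 (0.00988), MRPL11 (0.0129), MRPL49 (0.0171), MRPL1 (0.0191) and MRPS14 (0.0412). In 3 of them, MRPS30, MRPL11 and MRPL49, the siPCBP2 and untreated values overlapped. Only MRPL1 was also among the 6 genes of the limma test.

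Mitoribosomal proteins outside the MRPL and MRPS symbols were measured for 4 genes, and the groups overlapped in all 4. GADD45GIP1, a large subunit protein, had 40.2 and 27.6 FPKM in siPCBP2 cells, against 27.9 and 29.4 FPKM in untreated cells (log2 difference 0.21). PTCD3, which binds RNA in the small subunit, had 36.1 and 39.9 FPKM in siPCBP2 cells, against 39.6 and 41.7 FPKM in untreated cells (log2 difference -0.09). In DAP3, a GTP-binding protein of the small subunit, and AURKAIP1 the log2 differences were 0.01 and -0.02. MRPL58, also called ICT1 and counted among the 70, had 24.4 FPKM in each siPCBP2 library, against 28.95 and 27.84 FPKM in untreated cells. Its groups did not overlap (log2 difference -0.21, limma adjusted p = 0.414).

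Among 21 assembly factors of the mitochondrial ribosome, the median log2 difference was 0.11 and none was called at an adjusted p of 0.05. RBFA, which matures the small subunit's RNA, had 8.84 and 8.01 FPKM in siPCBP2 cells, against 12.2 and 10.6 FPKM in untreated cells (log2 difference -0.39, limma adjusted p = 0.317). It was the only one of these at an unadjusted p under 0.05. YBEY and TFB1M, which act on the small subunit's RNA, followed by p, with log2 differences of -0.38 and -0.26 and no overlap between groups. In this list 4 genes lay apart on each side (19.0%), against 19.7% of all genes on the higher and 29.4% on the lower side. Among 14 mitochondrial translation factors, the median log2 difference was -0.11. Both siPCBP2 values lay below both untreated values for 7 of them (50%), against 29.4% of all genes, and above for 1 (7.14%), against 19.7% of all genes. MTIF3, an initiation factor, had 17.7 and 15.9 FPKM in siPCBP2 cells, against 20.1 and 23.3 FPKM in untreated cells (log2 difference -0.35, limma adjusted p = 0.321). MTIF2, the other initiation factor of the list, had 41.2 FPKM in each siPCBP2 library, against 52.8 and 47.3 FPKM in untreated cells (limma adjusted p = 0.338). Both initiation factors stood apart between groups without passing the adjusted test, as did TACO1, an activator of the translation of MT-CO1, with a log2 difference of -0.36.

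The 8 mitochondrial tRNA synthetases had a median log2 difference of 0.01, with none at an unadjusted p under 0.05. The 9 genes of mitochondrial transcription and RNA processing had a median of 0.15, with HSD17B10, a subunit of the mitochondrial RNase P, at 38.3 and 26.4 FPKM in siPCBP2 cells, against 23.9 and 19.4 FPKM in untreated cells (limma adjusted p = 0.318). TRMT10C, another subunit of that enzyme, and ELAC2, which cuts the other end of the tRNAs, followed by p, with log2 differences of 0.29 and -0.20 and no overlap between groups. The 13 mRNAs that the mitochondrial ribosome translates had a median of 0.01 and none was at an unadjusted p under 0.05. MT-CO3, a subunit of cytochrome c oxidase and the one with the smallest p of the 13, had 6567 and 6099 FPKM in siPCBP2 cells, against 7111 and 7437 FPKM in untreated cells (log2 difference -0.20, limma adjusted p = 0.406). MT-ND6 and MT-CO1, next by p, had log2 differences of -0.19 and 0.12. Of the 13, 3 (23.1%) had both siPCBP2 values below both untreated ones, against 29.4% of all genes, and 1 (7.69%) had both above, against 19.7% of all genes. The others overlapped.

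Of 7 transcriptional regulators of these genes, MYC, which activates ribosome and mitochondrial genes, had 105.4 and 42.9 FPKM in siPCBP2 cells, against 6.13 and 7.42 FPKM in untreated cells. The means were 10.9-fold apart, and the siPCBP2 libraries differed widely from each other (log2 difference 3.14, SE 0.41, limma adjusted p = 0.108). ESRRA, a nuclear receptor that drives mitochondrial genes, had 17.2 and 12.5 FPKM in siPCBP2 cells, against 11.39 and 11.97 FPKM in untreated cells (log2 difference 0.31, limma adjusted p = 0.459). YY1, whose motif is described above, had 24.32 and 20.005 FPKM in siPCBP2 cells, against 19.6 and 17.8 FPKM in untreated cells (log2 difference 0.23, limma adjusted p = 0.483). Both had their siPCBP2 values above their untreated values. The factors of the other motifs are given for that reason, beyond the 3 with the smallest p. GABPA, the ETS factor that binds DNA in its complex, had 6.11 and 7.42 FPKM in siPCBP2 cells, against 7.85 and 7.47 FPKM in untreated cells. Its partner GABPB1 had 9.61 and 9.84 FPKM in siPCBP2 cells, against 11.1 and 11.4 FPKM in untreated cells. NRF1 had 7.95 and 6.22 FPKM in siPCBP2 cells, against 7.95 and 8.28 FPKM in untreated cells. GABPA and GABPB1 lay lower in siPCBP2 cells without overlap, GABPA by a narrow gap, and NRF1 overlapped; none of the 7 regulators passed the adjusted test.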

How the data were processed

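The deposited table gives 1 value per gene and library, read as FPKM; the header names no unit, so this rests on the values, which are not whole, never negative and sum to different totals. In another unit scaled to the library, differences would shift by 1 common factor per library. The submitters' processing notes name hg38, HISAT2 2.0, bedtools 2.26.0, Trimmomatic 0.36 and FastQC 0.11.2. The sources used here give no quantifier, annotation release, listing rule or strandedness. The authors' fold is a ratio, (untreated mean + 0.1) over (siPCBP2 mean + 0.1), for 7698 genes within 1e-06. The deposited p-values and q-values come from a test that the sources used here do not name.

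Genes at 1 FPKM or more in at least 2 libraries (7689; 9 left out) entered limma 3.58.1 in R 4.3.3 on log2(FPKM + 1), with a trended prior variance and Benjamini-Hochberg adjustment over all of them. The script was tested on simulated data. Exon overlaps and pseudogenes came from GENCODE release 29. Alternatives changed the scaling, pseudocount, filter, variance model, block, subunit assignment or members, or left out 1 library.

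The members and lists were chosen with earlier results of these data known. Genes named were the 6 per subunit with the smallest limma p, the 3 highest and 3 lowest in level per subunit, the MRPS18 family, MRPS30, MRPS36 and MRPL12, and for other lists the 3 with the smallest p; other names were chosen after their values were seen.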

Additional observations from a re-analysis of the deposited data

How the results depend on the processing

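No member passed an adjusted p of 0.05 under any alternative, with MRPL4 at 0.164 to 0.551. The 1 gene higher at an unadjusted p under 0.05 became 4 with scaling to a common total without mitochondrially encoded genes, and 2 to 5 with 1 library left out. The 5 lower genes became 3 with quantile normalization, with the common total and without the variance trend, and 1 to 6 with 1 library left out (1 without untreated replicate 1). The cause was not tested. The large subunit median of -0.10 was -0.038 with the common total and -0.040 without members that share exons or have pseudogenes, an alternative chosen after seeing the data, and -0.094 to -0.013 with 1 library left out. The small subunit median of -0.01 was 0.046, -0.070 and -0.047 to 0.060 in these settings. The large minus small difference of -0.09 was 0.030 without the shared members, and -0.084 to -0.0084 with 1 library left out. The median of all genes was 0.00 with quantile normalization and 0.02 with the common total, against -0.04.

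Of 189 values of 27 named genes, 184 kept their direction and side of the threshold, libraries left out aside. The filter, variance model and block leave a gene's log2 difference unchanged here, so only the scaling and pseudocount could turn a direction. MRPS18A turned to 0.026 with quantile normalization and 0.046 with the common total, under which MRPS18C turned to 0.013, MRPS28 to 0.015 and MRPS30 to 0.011. With 1 library left out, 10 genes turned direction: MRPL12 ran between -0.032 and 0.12, MRPL30 between -0.52 and 0.74, MRPL53 between -0.24 and 0.071, MRPS15 between -0.056 and 0.060, MRPS18A between -0.24 and 0.22, MRPS18C between -0.20 and 0.11, MRPS28 between -0.13 and 0.054, MRPS30 between -0.19 and 0.097, MRPS36 between -0.054 and 0.20, and MRPS6 between -0.51 and 0.0074.

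Libraries of the same number did not deviate together over all genes (correlation -0.09). With 2 libraries per group this is a single value, which cannot show whether libraries of the same number share a culture or batch. With the replicate block, 2 genes higher and 3 genes lower had an unadjusted p under 0.05, and none passed the adjusted test. With the 4 mitoribosomal genes of other symbols added together, the medians were -0.09 for the large and -0.01 for the small subunit. Depth is unknown, and 2 libraries per group limit every comparison.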
